A study of Homo sapiens with 4 samples.

Results

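INHBA, INHBB, FST, FSTL3, ACVR1, ACVR1B, ACVR2A and ACVR2B encode the subunits of activins A and B, the secreted proteins that bind activins, and receptors for these ligands. They are 8 of the 60617 genes in a table of read counts from SCC13 cells. INHBB was chosen by its large fold difference in CPM (read counts scaled to a common library size, with TMM factors for composition) between CELF2 knockdown and control cells, and the other 7 as its pathway partners with the results of that contrast known. The values of all 8 in that contrast are therefore given as descriptions, with no p-value. All 8 passed the filter on low counts by their own counts and were among the 15171 genes tested.

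The cells were SCC13, an established human skin squamous carcinoma line, with the genotype given as WT in both groups. The knockdown group carried a lentiviral shRNA against CELF2, an RNA-binding protein known for its part in splicing and mRNA turnover, and the control group a lentiviral scrambled shRNA. Polyadenylated RNA from 2 samples a group was sequenced, and the question was which transcripts differ with the knockdown. The labels do not say whether the 2 knockdown samples carried 1 shRNA sequence or whether replicates were separate cultures, so p-values measure a spread that may be technical.

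The 2 knockdown libraries held 19928788 and 23177056 counts, and the 2 control libraries 27898889 and 17649090. CELF2 had 0 counts in each knockdown library, against 1 and 0 counts in the control libraries, so its loss was not detectable at this depth and its counts do not check the labels. A floor of 3 counts was between 0.107 and 0.178 CPM. Over all genes, 133 were called at an adjusted p below 0.05, of which 69.2% were higher in the knockdown; with a correction for GC content 323 genes were called and 50.2% were higher. The 10 keratinocyte markers were all detected and summed to between 11647 and 25633 CPM in a library. Markers of other cell types summed to between 5.35 and 13.97 CPM for 7 leukocyte genes, 6.12 and 9.05 CPM for 6 melanocyte genes, and 13.3 and 38.1 CPM for 8 fibroblast genes. COL1A1 made up most of the fibroblast sum, at 37.5 and 20.7 CPM in the knockdown libraries, against 13.1 and 16.1 CPM in the controls, and COL1A2, COL3A1, DCN, LUM and THY1 had 0 counts in every library. PTPRC and CD3E were likewise at 0, and CSF1R made up most of the leukocyte sum, while MLANA, TYR and TYRP1 were the melanocyte genes at 0. MITF and PMEL made up most of the melanocyte sum. MITF stood at 5.28 and 5.18 CPM in the knockdown libraries, against 6.36 and 3.98 CPM in the controls. PMEL stood at 3.45 and 3.62 CPM in the knockdown libraries, against 2.36 and 1.90 CPM in the controls. DCT had at most 6 counts in a library. The 6 endothelial genes summed to 2.12 and 2.61 CPM in the knockdown libraries and to 0.679 and 0.356 CPM in the control libraries. These sums rest on few reads, with at most 24 counts of a gene in a library. VWF, CLDN5 and KDR were higher in both knockdown libraries, while PECAM1, CDH5 and TEK overlapped between groups. The part of these markers in the results below was not tested.

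Activins are dimers of inhibin beta subunits: a dimer of the INHBA product is activin A, a dimer of the INHBB product is activin B, and a beta subunit joined to the alpha subunit INHA is an inhibin, which opposes activin. Activins bind the type II receptors ACVR2A and ACVR2B, which recruit and phosphorylate the type I receptor ACVR1B (ALK4), and the receptor complex phosphorylates SMAD2 and SMAD3. ACVR1 (ALK2) is a type I receptor that mainly carries BMP signals through SMAD1 and SMAD5, and activin A can hold it in a complex that does not signal. Follistatin (FST) and follistatin-like 3 (FSTL3) wrap around activins outside the cell and keep them from their receptors. In skin, activin A is known for its induction in wounds and for effects on keratinocytes in repair and in tumours.

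Each of the 8 genes had at least 1 promoter window in the RefSeq annotation (GRCh38.p14, 11 windows, from 250 bases before to 50 after a start). The windows of INHBB, INHBA and FST are printed because these are the beta subunit with the larger fold difference, its paralog, and the binding protein whose difference had the opposite sign. Capitals mark, on either strand, the GC box GGGCGG, the TATA box TATAAA, the core of the cAMP response element TGACGT and the SMAD box CAGAC.
INHBB (chr2:120345886-120346185, plus strand): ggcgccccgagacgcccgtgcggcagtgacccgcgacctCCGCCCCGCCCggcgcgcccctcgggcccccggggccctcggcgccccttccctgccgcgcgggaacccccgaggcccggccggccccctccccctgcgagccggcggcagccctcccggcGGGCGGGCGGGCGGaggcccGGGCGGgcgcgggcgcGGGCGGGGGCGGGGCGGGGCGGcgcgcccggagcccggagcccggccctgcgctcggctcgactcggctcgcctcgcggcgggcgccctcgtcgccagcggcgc
INHBA (chr7:41703041-41703340, minus strand): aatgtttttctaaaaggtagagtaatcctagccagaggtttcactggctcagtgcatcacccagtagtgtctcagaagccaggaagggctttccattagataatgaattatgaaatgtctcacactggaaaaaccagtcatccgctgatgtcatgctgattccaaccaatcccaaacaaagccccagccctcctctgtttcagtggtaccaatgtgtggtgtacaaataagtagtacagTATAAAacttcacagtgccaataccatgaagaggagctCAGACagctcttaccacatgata
FST (chr5:53480379-53480678, plus strand): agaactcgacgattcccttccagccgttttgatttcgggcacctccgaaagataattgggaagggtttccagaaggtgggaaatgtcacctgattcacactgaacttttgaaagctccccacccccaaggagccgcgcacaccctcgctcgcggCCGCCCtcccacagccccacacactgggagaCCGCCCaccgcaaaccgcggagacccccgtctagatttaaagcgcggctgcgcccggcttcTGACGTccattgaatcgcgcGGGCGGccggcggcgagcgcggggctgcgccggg

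The INHBB window was 88.7% G or C, against a median of 58.7% over 35116 promoter windows, of which 8, this one included, were at or above that value. It held 10 matches to the GC box, several of them overlapping each other, and 0 to the other 3 motifs. The INHBA window was 43.3% G or C and held 1 TATA box, 1 SMAD box and 0 GC boxes. The FST window was 63.7% G or C and held 3 GC boxes and 1 cAMP response element core. Over all windows, 44.95% held a GC box, 11.5% a TATA box, 7.98% the cAMP response element core and 45.3% a SMAD box. A match describes these letters only and is not evidence of binding.

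INHBB, the beta subunit of activin B and inhibin B (ENSG00000163083, a protein-coding gene on chromosome 2 of GRCh38 in GENCODE v29, 120346143 to 120351808, plus strand), was the member with the largest fold difference. It stood at 14.7 and 16.2 CPM in the knockdown libraries, from 297 and 385 counts, against 1.75 and 2.55 CPM in the control libraries, from 49 and 43 counts. Both knockdown libraries were far above both control libraries. In bulk RNA a larger share of cells with the transcript and more of it per cell cannot be told apart, and likewise fewer cells and less RNA per cell. The exact Poisson 95% intervals, which cover counting error only, were 13.04 to 16.4 and 14.6 to 17.9 CPM in the knockdown and 1.30 to 2.32 and 1.85 to 3.44 CPM in the controls. The means were 15.4 ± 1.10 CPM in the knockdown and 2.15 ± 0.568 CPM in the controls (SD, n = 2 each), a 7.17-fold difference and a log2 fold change of 2.86 ± 0.32 (SE).

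INHBB was 1 of 8 members called at an adjusted p below 0.05 by edgeR's quasi-likelihood test, where 0.877% of all tested genes were called; since INHBB was chosen by this contrast, nothing is read from that count. The call was lost without control replicate 1, with a log2 fold change of 2.58, and without knockdown replicate 2, with 2.78. It was also lost with limma-voom, at 2.90, in a fit that called 0 of all tested genes. The fold change itself kept its sign in each of 11 alternative fits and ranged from 2.58 to 3.15. Since these fits reuse the same libraries, which did not overlap between groups, nothing is read from the steady sign.

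**Figure D1:**
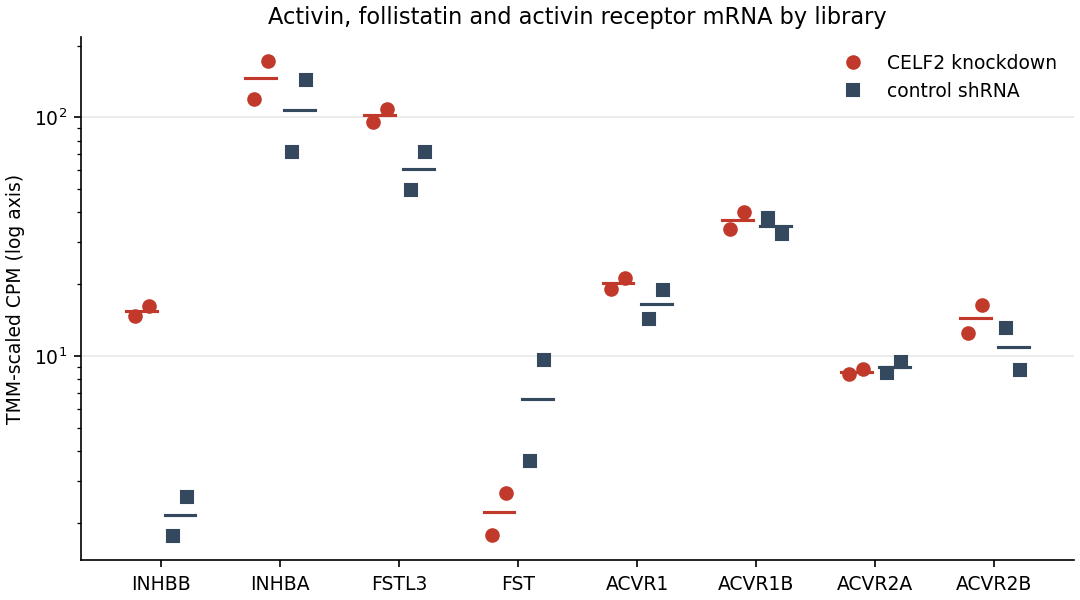
TMM-scaled CPM on a log axis for the 8 genes; circles are the 2 CELF2 knockdown libraries, squares the 2 control shRNA libraries, and bars the group means. INHBB lies at 14.7 and 16.2 CPM in the knockdown, against 1.75 and 2.55 CPM in the controls, while each receptor's group means differ by less than those of INHBB.

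INHBA, the beta subunit of activin A (ENSG00000122641, chromosome 7, 41667168 to 41705834, minus strand), had far more counts than its paralog. It stood at 119.7 and 173 CPM in the knockdown libraries, against 71.9 and 144 CPM in the control libraries. The groups overlapped, since control replicate 2 was above knockdown replicate 1, and the 2 controls lay further apart than the group means, 146 ± 37.9 CPM in the knockdown and 108 ± 50.9 CPM in the controls (SD, n = 2 each). The log2 fold change was 0.44 ± 0.33 (SE). It lay between 0.02, with control replicate 1 left out, and 1.04, with control replicate 2 left out.

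Counts per kilobase of exon allow the subunits to be set side by side. On this scale INHBB averaged 4.82 ± 0.343 CPM per kilobase in the knockdown and 0.672 ± 0.177 in the controls, and INHBA 17.6 ± 4.56 in the knockdown and 12.99 ± 6.13 in the controls (SD, n = 2 each). INHBB made up 24.1% and 19.5% of the per-kilobase sum of INHBA and INHBB in the knockdown libraries, against 5.94% and 4.40% in the control libraries. INHBA thus remained the more abundant beta subunit transcript in all 4 libraries, and the INHBB share did not overlap between groups. Since INHBB was chosen by its difference between these groups, nothing is read from that lack of overlap. The difference in mean share was 16.6 percentage points. It was 7.67 points on plain CPM, not divided by length.

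**Figure D2:**
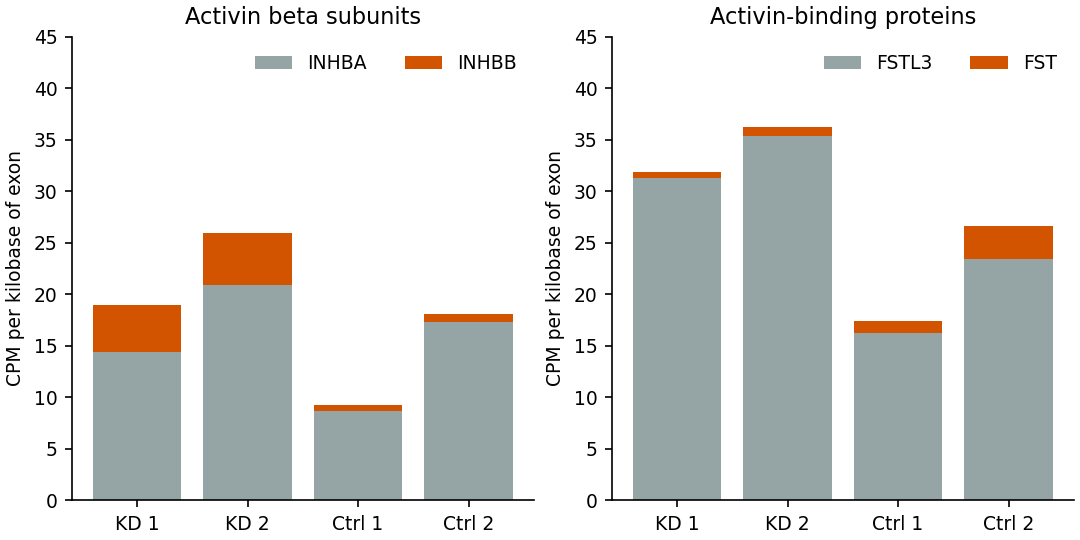
CPM per kilobase of exon in each library (KD, CELF2 knockdown; Ctrl, control shRNA), stacked for the beta subunits INHBA and INHBB (left) and for the binding proteins FSTL3 and FST (right). The INHBB part is 24.1% and 19.5% of its bar in the knockdown libraries, against 5.94% and 4.40% in the controls; the FST part is 1.88% and 2.47% in the knockdown, against 6.98% and 12.2% in the controls.

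The 2 activin-binding proteins differed in opposite directions. FSTL3 (ENSG00000070404, chromosome 19, 676365 to 683399, plus strand), a secreted glycoprotein without the heparin-binding part of follistatin, stood at 95.9 and 108 CPM in the knockdown libraries, against 49.7 and 71.8 CPM in the control libraries. Both knockdown libraries were above both controls. The means were 102 ± 8.75 CPM in the knockdown and 60.7 ± 15.6 CPM in the controls (SD, n = 2 each), with a log2 fold change of 0.75 ± 0.21 (SE).

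FST (ENSG00000134363, chromosome 5, 53480409 to 53487134, plus strand), which binds activins nearly irreversibly, stood at 1.78 and 2.65 CPM in the knockdown libraries, from 36 and 63 counts. In the control libraries it stood at 3.61 and 9.62 CPM, from 101 and 162 counts. Both knockdown libraries were below both controls, but control replicate 1 lay nearer to them than to control replicate 2. The log2 fold change was -1.56 ± 0.52 (SE), with -0.68 when control replicate 2 was left out and -2.12 when control replicate 1 was. Neither binding protein was called by edgeR's quasi-likelihood test with the filter on low counts and no block. Both were called with no filter and with the replicate number as a block, and FSTL3 was called by DESeq2.

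Per kilobase of exon, FSTL3 was the most abundant of the 8 transcripts in both groups, at 33.3 ± 2.85 in the knockdown and 19.8 ± 5.09 in the controls (SD, n = 2 each). This rank depends on the division by length, since on plain CPM INHBA was above FSTL3 in every library. FST made up 1.88% and 2.47% of the per-kilobase sum of FST and FSTL3 in the knockdown libraries. In the control libraries it made up 6.98% and 12.2%, with no overlap. Nothing is read from this either, since the genes were chosen with the contrast known. The ratio of the beta subunit sum to the binding protein sum was 0.596 and 0.716 in the knockdown libraries, against 0.529 and 0.680 in the control libraries. These ratios overlapped between groups, although both sums were higher on average in the knockdown. The mean ratio was 0.656 ± 0.0851 in the knockdown and 0.604 ± 0.107 in the controls, and the difference of 0.0515 was smaller than either SD. Its sign was not steady: the difference was -0.049 on plain CPM, -0.0243 without control replicate 1 and -0.0087 without knockdown replicate 2.

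None of the 4 receptor genes was called, and 3 of them overlapped between groups. ACVR1B, the type I receptor of activins (ENSG00000135503, chromosome 12, 51951667 to 51997078, plus strand), stood at 34.0 and 40.05 CPM in the knockdown libraries, against 37.8 and 32.6 CPM in the control libraries. The groups overlapped, with a log2 fold change of 0.07 ± 0.19 (SE). ACVR1 (ENSG00000115170, chromosome 2, 157736444 to 157875862, minus strand) stood at 19.05 and 21.3 CPM in the knockdown libraries, against 14.3 and 18.8 CPM in the controls. The knockdown libraries were above both controls by a margin of under 1 CPM, and the log2 fold change was 0.29 ± 0.23. It was 0.09 with control replicate 1 left out and 0.51 with control replicate 2 left out.

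ACVR2A (ENSG00000121989, chromosome 2, 147844517 to 147930826, plus strand) stood at 8.39 and 8.80 CPM in the knockdown libraries, against 8.51 and 9.45 CPM in the control libraries. These values overlapped, with a log2 fold change of -0.06 ± 0.26 (SE). In GENCODE v29 its exons share 430 bases with ORC4 and 110 bases with an antisense gene on the opposite strand, and since no source states whether the counting used strand, its counts are uncertain. ACVR2B (ENSG00000114739, chromosome 3, 38453851 to 38493142, plus strand) stood at 12.5 and 16.4 CPM in the knockdown libraries, against 13.1 and 8.73 CPM in the controls. Its groups overlapped as well, with a log2 fold change of 0.40 ± 0.29. The other 7 members shared no exon bases with another gene.

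Per kilobase of exon, the type I receptors ACVR1 and ACVR1B summed to 10.8 and 12.4 in the knockdown libraries, against 10.2 and 10.4 in the control libraries. The type II receptors summed to 2.03 and 2.34 in the knockdown libraries, against 2.09 and 1.95 in the control libraries. The type II receptors were thus the less abundant class in every library. ACVR2B, which has a long transcript, made up 39.0% and 44.5% of the type II sum in the knockdown libraries, against 39.8% and 28.4% in the control libraries. On plain CPM it made up 59.8% and 65.05% in the knockdown libraries, against 60.6% and 48.0% in the controls. The rank of ACVR2A above ACVR2B thus depends on the division by length in all but control replicate 2. With 2 libraries a group these ratios describe the libraries only.

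The order of the 8 levels per kilobase of exon began with FSTL3, INHBA, ACVR1B and ACVR1 in both groups. In the knockdown INHBB followed next at 4.82, overlapping ACVR1 at 5.05, and then came ACVR2A at 1.27, ACVR2B at 0.917 and FST at 0.746, the last pair overlapping. In the controls FST held that place at 2.23, overlapping ACVR2A at 1.33, and ACVR2B at 0.693 and INHBB at 0.672 came last and overlapped. FSTL3 and INHBA overlapped in the controls and not in the knockdown. The order of FSTL3 and INHBA, and that of ACVR2A and ACVR2B, depends on the division by length. INHBB and FST were the members that changed places. Among all tested genes ranked by this level, INHBB lay at percentiles 51.1 and 53.8 in the knockdown libraries, against 17.5 and 22.0 in the controls.

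By counts, 4 of the 8 genes had knockdown and control libraries that did not overlap, beside 54.9% of all tested genes. Of these, INHBB, FSTL3 and ACVR1 were higher in the knockdown, where 27.1% of all tested genes were, and FST was lower, where 27.8% were. Since the genes were selected on this contrast, nothing is read from these counts. The median log2 fold change was 0.34 over the 8 members and 0.00 over all tested genes. The members' median was 0.13 when control replicate 1 was left out and 0.17 when knockdown replicate 2 was. Nothing is read from the members' median either, for the same reason.

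**Figure D3:**
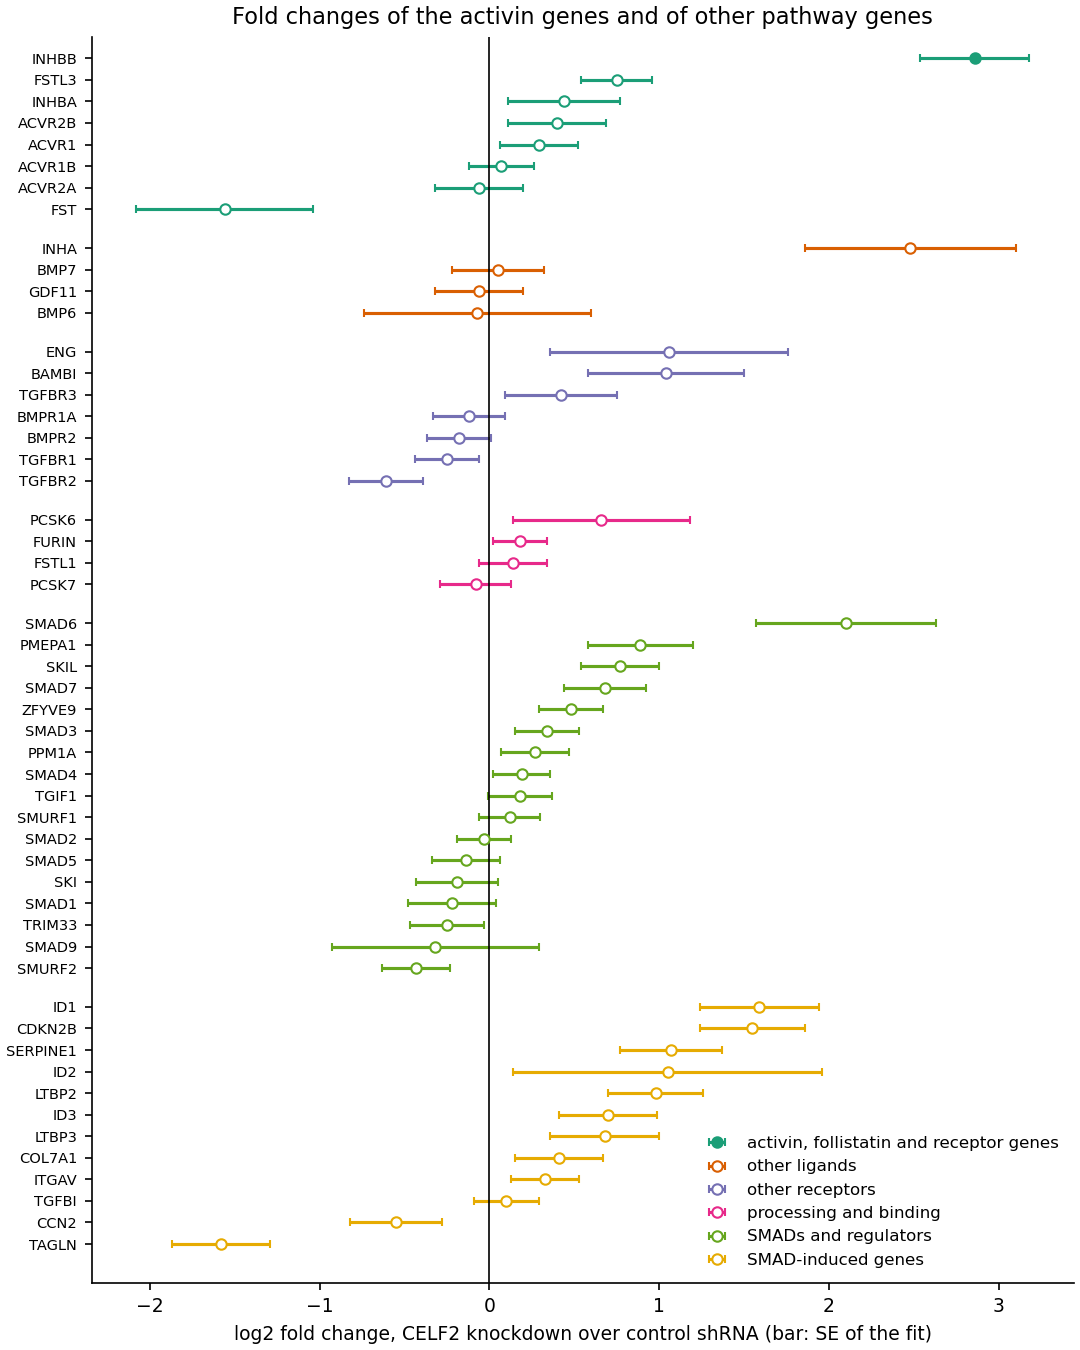
Log2 fold change, CELF2 knockdown over control shRNA, with the SE of the fit as bars, for the 8 genes and 44 other tested pathway genes grouped by role; the filled point is the called gene. INHBB at 2.86 and FST at -1.56 mark the ends of the 8 genes, and INHA at 2.48 is the highest of the other genes.

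Of 62 other genes of the pathway, 44 were tested, and 0 were called over all tested genes by edgeR's quasi-likelihood test, beside 0.877% of all genes. At an unadjusted p below 0.05 there were 13 (29.5%), of which 11 were higher and 2 lower in the knockdown. Over all tested genes that share was 22.1%, with 12.1% higher and 9.97% lower. DESeq2 called 5 of the 44 (11.4%), beside 9.14% of all tested genes, and limma-voom called 0 of either. All 5 were among the genes known to be induced through SMAD proteins, described below. The median log2 fold change of the 44 was 0.19. The lists were drawn up with earlier results of these data known. The shares given here and for each list below, and the p-values of listed genes, are therefore descriptions, and nothing is read from their distance to the shares over all genes.

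Among the other ligands, INHA was the gene with the smallest p. INHA, the alpha subunit that turns a beta subunit into an inhibin, had 29 counts in each knockdown library, against 4 and 6 counts in the control libraries. This was 1.33 ± 0.148 CPM in the knockdown and 0.250 ± 0.151 CPM in the controls (SD, n = 2 each). The groups did not overlap, and the log2 fold change of 2.48 ± 0.62 (SE) was not called (adjusted p = 0.0828, edgeR). GDF11 and BMP7, other ligands of type II activin receptors, had log2 fold changes of -0.06 and 0.05, with overlapping libraries; the exons of GDF11 overlap those of SARNP. Of the 10 ligands 4 were tested. The activin subunit genes INHBC and INHBE had at most 7 counts in a library, MSTN at most 8, and NODAL and GDF3 had 0. GDF1 was listed at 0, but all 2517 of its exon bases are shared with CERS1 on the same strand, so its count is uncertain.

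Of 12 other receptors and co-receptors 7 were tested and 0 were called. TGFBR2, the type II receptor of TGF-beta, stood at 86.2 ± 24.3 CPM in the knockdown and 132 ± 0.384 CPM in the controls (log2 fold change -0.61 ± 0.22, SE; edgeR adjusted p = 0.160). BAMBI, a pseudoreceptor that blocks type I receptors, had 42 and 88 counts in the knockdown libraries, against 36 and 26 counts in the controls, with a log2 fold change of 1.04 ± 0.46 (edgeR adjusted p = 0.241). ENG, an accessory receptor, had 1.06 ± 0.70, with libraries that overlapped between groups and exons that overlap an antisense gene. ACVR1C (ALK7), a type I receptor for activin B, had 2 and 13 counts in the knockdown libraries, against 2 and 6 counts in the controls, and was not tested. TDGF1, the co-receptor of nodal, had at most 1 count, and IGSF1 had 0.

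Of 9 genes of precursor processing and extracellular binding 4 were tested and 0 were called. FURIN, a protease that cleaves ligand precursors of this family, averaged 215 ± 14.3 CPM in the knockdown and 189 ± 5.94 CPM in the controls (log2 fold change 0.18 ± 0.16, SE). PCSK6, a related protease, had 0.66 ± 0.52, and FSTL1, a follistatin-like glycoprotein, 0.14 ± 0.20. The exons of PCSK6 and FSTL1 overlap those of other genes, so their counts are uncertain.

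Of 18 SMAD proteins and their regulators 17 were tested and 0 were called. At an unadjusted p below 0.05 there were 5 (29.4%), each higher in the knockdown, beside 22.1% of all tested genes in either direction and 12.1% higher. These counts describe the list only. SMAD6, an inhibitory SMAD that acts mainly on BMP signals, had 31 and 28 counts in the knockdown libraries, against 9 and 5 counts in the controls, with a log2 fold change of 2.10 ± 0.53 (SE; edgeR adjusted p = 0.0840). SKIL, a SMAD co-repressor that TGF-beta family signals induce, stood at 23.9 ± 4.91 CPM in the knockdown and 14.01 ± 0.661 CPM in the controls (log2 fold change 0.77 ± 0.23, edgeR adjusted p = 0.118). PMEPA1, which keeps SMAD2 and SMAD3 from the receptor, had a log2 fold change of 0.89 ± 0.31 (edgeR adjusted p = 0.160), and its exons overlap those of an antisense RNA. The signal carriers SMAD2, SMAD3 and SMAD4 had log2 fold changes of -0.03, 0.34 and 0.19, and the exons of SMAD3 and SMAD4 overlap those of other genes.

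Of 13 genes known to be induced through SMAD proteins 12 were tested and 0 were called. At an unadjusted p below 0.05 there were 6 (5 higher and 1 lower), beside 22.1% of all tested genes, and DESeq2 called 5, beside 9.14%. With 12 genes these counts describe the list only. TAGLN, an actin-binding protein, stood at 19.5 ± 4.57 CPM in the knockdown and 58.1 ± 20.6 CPM in the controls (SD, n = 2 each; log2 fold change -1.58 ± 0.29, SE; edgeR adjusted p = 0.0542). Its exons share 446 bases with PCSK7 on the opposite strand, and its count is uncertain. CDKN2B, a cyclin-dependent kinase inhibitor induced by TGF-beta, stood at 75.9 ± 9.88 CPM in the knockdown and 25.96 ± 11.9 CPM in the controls (log2 fold change 1.55 ± 0.31, edgeR adjusted p = 0.0599). ID1, a transcriptional regulator induced by BMP signals, stood at 35.6 ± 10.1 CPM in the knockdown and 11.9 ± 5.39 CPM in the controls (1.59 ± 0.35, edgeR adjusted p = 0.0673). In each of these 3 genes the libraries did not overlap between groups, as in 8 of the 12 and in 54.9% of all tested genes. TAGLN, CDKN2B and ID1 were named for the smallest p in the list, so nothing is read from that lack of overlap. The median over the 12 was 0.69, and CCN2 at -0.55 was the other gene below 0.

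**Figure D4:**
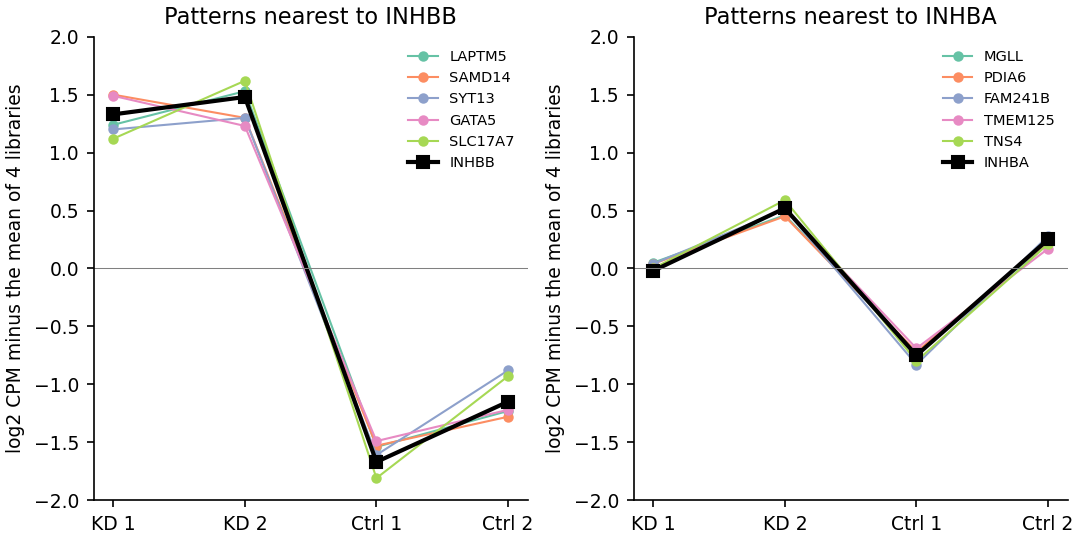
Log2 CPM minus the mean of the 4 libraries (KD, CELF2 knockdown; Ctrl, control shRNA) for INHBB (left, black) and INHBA (right, black) with the 5 genes nearest to each. The INHBB set separates the groups, while in the INHBA set control replicate 2 lies above knockdown replicate 1. Both patterns follow from the selection, since the genes were picked for likeness to INHBB or INHBA in these same libraries.

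The genes outside the 8 whose pattern was most like that of INHBB were found by the Euclidean distance between log2 CPM profiles centred over the 4 libraries, among 15163 tested genes. In order of distance they were LAPTM5 (0.191), SAMD14 (0.315), SYT13 (0.348), GATA5 (0.351) and SLC17A7 (0.366). LAPTM5, a lysosomal membrane protein, stood at 4.69 and 5.77 CPM in the knockdown libraries, against 0.608 and 0.772 CPM in the controls. SLC17A7, a vesicular glutamate transporter, stood at 10.4 and 14.8 CPM in the knockdown libraries, against 1.29 and 2.44 CPM in the controls. SAMD14 and SYT13 were below 1 CPM in all 4 libraries, and in the control libraries both were under the floor of 3 counts.

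The 5 genes nearest to INHBA were MGLL (0.0964), PDIA6 (0.0981), FAM241B (0.0982), TMEM125 (0.103) and TNS4 (0.104). PDIA6, a protein disulfide isomerase of the endoplasmic reticulum, stood at 771 and 1022 CPM in the knockdown libraries, against 456.5 and 879 CPM in the controls. In these genes, as in INHBA, control replicate 1 was the lowest library and control replicate 2 lay between the knockdown libraries. Both sets of nearest genes were picked for their likeness in these same 4 libraries, so the shared order of libraries follows from the selection. Such likeness is a description of these samples.

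**Figure D5:**
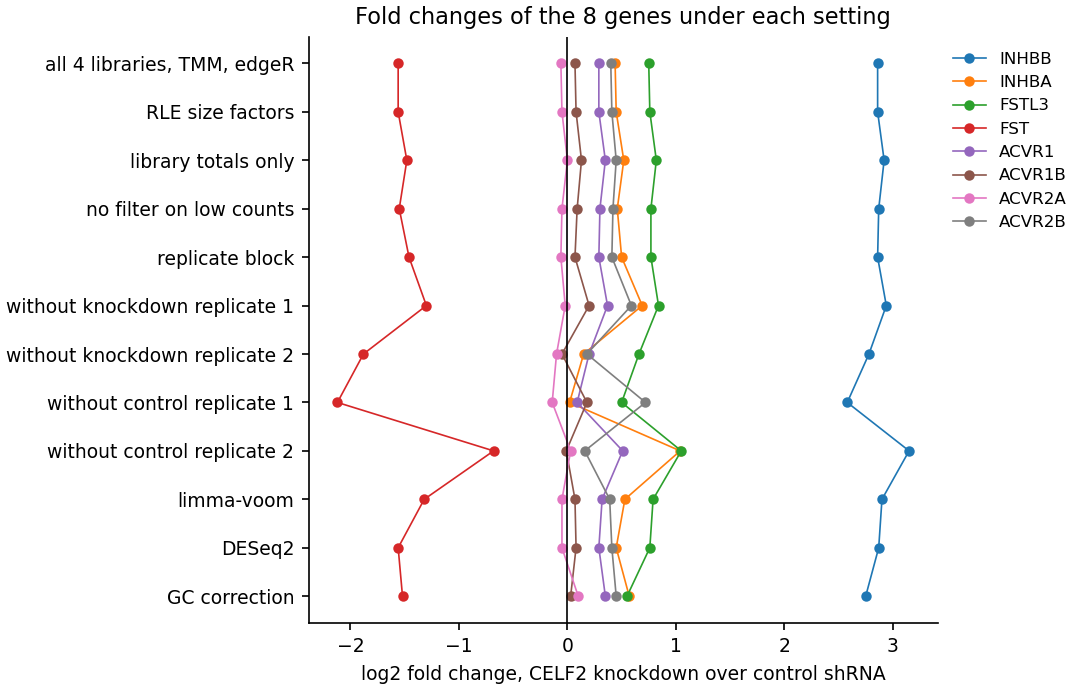
Log2 fold change, CELF2 knockdown over control shRNA, of each of the 8 genes in the fit of all 4 libraries (top) and in 11 alternative fits. INHBB stays between 2.58 and 3.15 and FST between -2.12 and -0.68, while ACVR1B and ACVR2A lie on either side of 0.

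Across the 11 alternative fits, INHBB, INHBA, FSTL3, ACVR1 and ACVR2B had log2 fold changes above 0 in each, and FST was below 0 in each. All these fits reuse the same libraries, and those of INHBB, FSTL3, ACVR1 and FST did not overlap between groups. Leaving out a library could therefore hardly reverse the signs of these genes, and nothing is read from their steadiness. ACVR1B ranged from -0.05 to 0.20 and ACVR2A from -0.14 to 0.10, so these receptors had no steady direction. FSTL3 ranged from 0.50 to 1.05 and ACVR2B from 0.16 to 0.72. With the GC correction the values were 2.75 for INHBB, -1.52 for FST and 0.55 for FSTL3. FSTL3 was at 0.55 ± 0.21 (SE) with that correction and at 0.75 ± 0.21 without it. Its longest transcript is 64.4% G or C, against a median of 48.6% over tested genes. The part of GC content in this shift was not tested. The INHBB transcript is 56.7% G or C.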

How the data were processed

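Polyadenylated RNA of 2 CELF2 knockdown and 2 control shRNA samples (SCC13 cells) went into TruSeq libraries, per the labels' protocols. The authors deposited 1 table of raw counts, its rows Ensembl genes and its columns the 4 libraries. HISAT2, edgeR and GRCh38 are named in the submitters' processing notes without versions; no source used here names the counting program, annotation release or strand setting. Columns were matched to samples by the sample descriptions.

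The counts were tested across all genes with edgeR 4.0.16 (R 4.3.3; TMM, filterByExpr with a minimum count of 10, quasi-likelihood test, Benjamini-Hochberg adjustment at 0.05). A check on simulated data required recovery of planted changes only at a lower variation between replicates than in these data. It therefore says nothing of the power here. The common biological coefficient of variation was 21.6%. SEs come from the fit. The 4 libraries are distinct (chi-square per degree of freedom between replicates 48.1 in the knockdown and 54.3 in the controls). Exon lengths, positions and GC came from GENCODE v29, with GC for 15099 of 15171 tested genes, and promoters from RefSeq. Nearest patterns used log2 CPM with a prior count of 2.

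The members and gene lists were chosen with earlier results of these data known. Text names all members, the 3 genes of each list lowest in p, and the 5 nearest patterns to INHBB and to INHBA; other named genes were chosen after their values were seen. Alternatives were RLE size factors, library totals, no filter, DESeq2 1.42.0, limma-voom (limma 3.58.1), a replicate block, leaving out each library, and, added after the data were seen, a GC correction (lowess span 0.3) and another transcript length. The values of 1 leukocyte marker are not reported here by name.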

Additional observations from a re-analysis of the deposited data

How the results depend on the processing

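The table held 133 calls in the fit of all 4 libraries, and 211 with RLE size factors, 416 with library totals only, 2139 with no filter on low counts, 0 with limma-voom (3404 at an unadjusted p below 0.05), 1386 with DESeq2 and 323 with the GC correction. Leaving out 1 library gave 0 to 616 calls, the 0 without control replicate 1, with 1724 at an unadjusted p below 0.05. Of the 8 members, 1 was called with all 4 libraries, 3 with no filter (INHBB, FST and FSTL3), 2 with DESeq2 (INHBB and FSTL3), 0 with limma-voom, and 0 to 1 with 1 library left out. Of the other pathway genes 0 were called with all 4 libraries, 3 with library totals only, 11 with no filter, 5 with DESeq2, 1 with the GC correction, and 0 to 4 with 1 library left out. The members' median log2 fold change ran from 0.13 to 0.48 with 1 library left out.

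The numbers 1 and 2 in the titles are not said to pair the samples, and same-numbered libraries deviated together with a correlation of 0.203 across genes, which are not independent. With the replicate number as a block, 1579 genes were called, among them 3 members (INHBB, FST and FSTL3) and 7 other pathway genes.

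The difference in INHBB share was 16.6 percentage points per kilobase of exon, 7.67 on plain CPM and 13.1 per kilobase of the longest transcript, and 14.3 to 18.9 with 1 library left out. The difference in the ratio of beta subunits to binding proteins was 0.0515 per kilobase of exon and -0.049 on plain CPM, and ran from -0.0243 to 0.127 with 1 library left out. The causes of these shifts were not tested. Among the genes with low counts, INHA had 4 to 29 and FST 36 to 162 counts a library.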
